A study of Mus musculus with 12 samples.

Results

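Primordial germ cell-like cells (PGCLCs) induced from parthenogenetic embryonic stem cells (pESC-PGCLCs) were compared with PGCLCs induced from embryonic stem cells of fertilized origin (ESC-PGCLCs), to ask at which genomic features the DNA methylation level depended on the origin of the starting cells. Each origin had 2 libraries of reduced representation bisulfite sequencing (RRBS), which reads methylation mainly in CpG-rich fragments cut by the enzyme MspI at CCGG. The features compared were the 141523 features with a level in all 4 PGCLC libraries, of 157202 with a level in any of the 4 and of 176831 with a level in any of the 12 libraries of the series. Repeat features were the largest class with 39579, followed by exons (19581), promoters (19237), introns (19097), shores of CpG islands (15036), the islands themselves (13952), and the untranslated regions (UTRs) at the 5' end (11112) and the 3' end of genes (3929). A gene carries 1 exon value and 1 intron value, and the classes overlap, so that a cytosine can count in more than 1 feature.

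All libraries came from mice of the strain C57BL6. Per the study, both kinds of stem cell carried an Actin-GFP transgene. ESCs were female and came from fertilized blastocysts. The pESCs came from oocytes activated with strontium and kept diploid with cytochalasin D, so that both of their genomes are maternal. Both kinds of stem cell were turned into epiblast-like cells for 2 days with 1%KSR, bFGF and Activin A. They were then turned into PGCLCs for 4 days with BMP4, SCF, EGF and LIF, and PGCLCs were sorted by the surface markers SSEA1 and CD61. The 8 other libraries were 2 each of ESCs, of pESCs, and of PGCs sorted from female embryos at embryonic days 9.5 and 12.5 (E9.5 and E12.5 PGCs). How many stem cell lines or clones stood behind the libraries was not given in the sources used here. Methylation does not show which genes are expressed, so the label PGCLC could not be checked against marker expression.

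In mammals a small number of control regions keep methylation on the copy inherited from 1 parent only, and neighbouring genes are then expressed from 1 parental copy. Most of these regions are methylated in the oocyte, and a few, such as those of H19 and Rasgrf1, in the sperm. A cell of fertilized origin should carry 1 methylated and 1 unmethylated copy of each, whereas a parthenogenetic cell inherits only the oocyte pattern. Primordial germ cells erase methylation over most of the genome as they move to and settle in the gonad, and the parental marks are erased late in that process. In a level measured over many cells, cells with methylated copies and methylated copies within each cell cannot be told apart, and the levels here were not split by parental copy.

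The sequences below lie at features that the results turn on. They were read from GRCm38, and are printed 5' to 3' with each CpG, the kind of site at which methylation is measured, in capitals. Which of these CpGs the libraries covered was not given. The first 2 are the first 300 bases of the imprinted islands that were higher in pESC-PGCLCs with at least 10 percentage points between the nearest libraries, chosen after their values were seen, and neither passed the test. The island in Airn, the noncoding RNA that silences Igf2r, spans chr17:12741441-12742489, 1049 bases with 82 CpG and 5 CCGG, and lies in introns of Airn and of Igf2r. The island of Kcnq1ot1, the noncoding RNA of the Kcnq1 domain, spans chr7:143295405-143295824, 420 bases with 41 CpG and 3 CCGG, in an exon of Kcnq1ot1 and an intron of Kcnq1. The other 2 are the stretches directly before the annotated starts of Unc119 (237 bases, 13 CpG) and Syde1 (250 bases, 11 CpG), whose promoters were called higher in pESC-PGCLCs. The window of the promoter features was not given, so these stretches may differ from the features called. The stretch before Syde1 overlaps an exon of Gm30346. CCGG, searched on both strands since it is its own reverse complement, occurred 2 times before Unc119 and 3 times before Syde1. In all, 47.0% of 32817 promoter stretches of RefSeq (GRCm38.p6) of 250 bases held it.
Airn and Igf2r island, chr17:12741441-12741740, plus strand: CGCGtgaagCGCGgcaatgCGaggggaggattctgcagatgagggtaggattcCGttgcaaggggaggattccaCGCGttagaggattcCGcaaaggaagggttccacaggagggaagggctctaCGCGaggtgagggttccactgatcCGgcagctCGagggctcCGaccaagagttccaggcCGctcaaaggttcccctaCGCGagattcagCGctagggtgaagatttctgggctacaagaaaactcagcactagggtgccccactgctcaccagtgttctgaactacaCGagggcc
Kcnq1ot1 island, chr7:143295405-143295704, plus strand: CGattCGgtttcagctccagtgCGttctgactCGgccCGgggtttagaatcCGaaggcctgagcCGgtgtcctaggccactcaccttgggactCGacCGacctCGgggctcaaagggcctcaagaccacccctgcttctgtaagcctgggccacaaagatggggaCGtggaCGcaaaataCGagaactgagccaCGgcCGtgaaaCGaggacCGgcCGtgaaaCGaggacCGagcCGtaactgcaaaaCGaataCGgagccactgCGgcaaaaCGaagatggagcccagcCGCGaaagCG
Unc119 promoter, chr11:78343245-78343481, plus strand: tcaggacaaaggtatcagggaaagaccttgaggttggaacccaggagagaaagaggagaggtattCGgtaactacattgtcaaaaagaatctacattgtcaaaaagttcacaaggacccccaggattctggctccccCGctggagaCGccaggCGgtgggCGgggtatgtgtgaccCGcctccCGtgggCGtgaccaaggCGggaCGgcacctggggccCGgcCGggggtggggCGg
Syde1 promoter, chr10:78591965-78592214, minus strand: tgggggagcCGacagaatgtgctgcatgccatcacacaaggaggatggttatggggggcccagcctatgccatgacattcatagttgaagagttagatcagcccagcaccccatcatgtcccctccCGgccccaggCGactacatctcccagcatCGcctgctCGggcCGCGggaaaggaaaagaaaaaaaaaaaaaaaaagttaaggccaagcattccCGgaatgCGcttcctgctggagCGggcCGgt

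The deposited files give levels without read counts, so the depth behind each level is unknown and depth may differ between features and libraries. Between 1.05% and 1.14% of the features listed in each PGCLC library had a level of exactly 0%, and between 0.170% and 0.315% a level of exactly 100%. Over the 141523 features, the replicates differed on average by 2.81 points in ESC-PGCLCs and 2.58 points in pESC-PGCLCs, and the group means of the origins by 3.21 points. A difference of 10 points or more separated the replicates at 5.24% of features in ESC-PGCLCs and 4.26% in pESC-PGCLCs, and the origins at 5.42%. The origin differences are between means of 2 libraries and the replicate differences between single libraries. Means vary less than single libraries, so these shares do not show whether the origins differed more than replicates. The paper describes its RRBS data as having 2 biological replicates. Neither it nor the labels say whether these came from separate cultures or lines. The p-values therefore measure the spread between these libraries, which may be partly technical.

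Methylation was lower in pESC-PGCLCs in each of the 8 feature classes, and in none of them did the replicates overlap. Over all features the library means were 30.4% and 30.3% in ESC-PGCLCs, as against 28.4% and 28.0% for pESC-PGCLCs, a difference of -2.16 points with 1.90 points between the nearest libraries. The exact permutation test (two-sided, n = 2) gave p = 0.333, the smallest it allows. Class means of both origins differed by nearly the same ratio, from 0.918 at 3' UTRs to 0.934 at 5' UTRs. CpG islands, which stay mostly free of methylation in mammals, averaged 6.04% ± 0.00409 (SD, n = 2) in ESC-PGCLCs, compared with 5.62% ± 0.0394 in pESC-PGCLCs. Promoters had 19.5% ± 0.0680 and 18.1% ± 0.180, and introns 33.6% ± 0.313 and 31.2% ± 0.366. The most methylated class, repeats, had 54.1% ± 0.0384 and 50.5% ± 0.450. Without repeats the difference over all features was -1.60 points.

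The difference grew with the level of the feature. Features with a mean under 5%, 49251 in number, averaged 2.38% in ESC-PGCLCs and 2.36% for the parthenogenetic origin. Between 20% and 40% the difference was -2.20 points, between 40% and 60% it was -4.11 points, and between 60% and 80% it was -5.05 points. The share of features at which both pESC-PGCLC libraries lay below both ESC-PGCLC libraries was 17.9% under 5%, 69.6% between 60% and 80%, and 52.4% among the 1317 features at 80% or more. Each of the 19 autosomes was lower in pESC-PGCLCs, with ratios from 0.919 to 0.934 and differences from -1.23 to -1.87 points. On the log2 odds scale used for the tests, ESC-PGCLCs had a median of -1.36 over all features, as against -1.50 for pESC-PGCLCs, a shift of -0.14. The features below are to be read against that shift.

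The question of which features separate the origins was answered first by counts without a test. At 13385 features (9.46%) both pESC-PGCLC libraries lay above both ESC-PGCLC libraries, and at 58740 (41.5%) both lay below, by any margin. With at least 10 points between the nearest libraries, 374 features (0.264%) were higher and 1745 (1.23%) lower in pESC-PGCLCs, so that 17.6% of the 2119 separated features were higher. When each library was shifted to the same median level, the counts became 543 higher and 951 lower, and the higher share 36.3%. Features separated by 10 points were thus few and mostly lower in pESC-PGCLCs under either scaling.

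**Figure D1:**
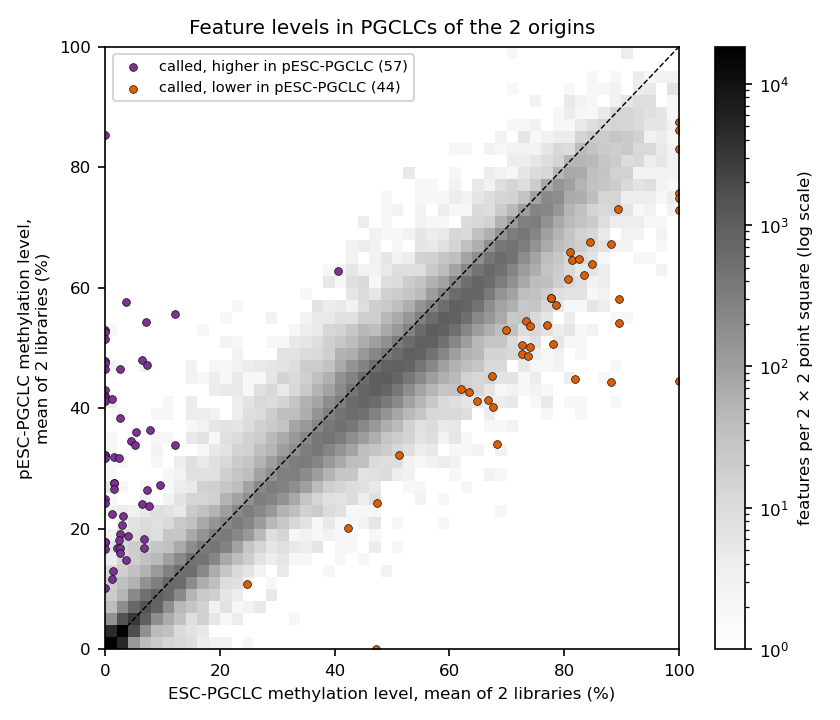
Mean methylation level of each of the 141523 features in the 2 ESC-PGCLC libraries (x axis, %) and the 2 pESC-PGCLC libraries (y axis, %), shown as the number of features per square of 2 by 2 points (grey, log scale), with features called by limma in colour. The bulk of features lies on or just below the dashed line of equal levels, most of the 57 features called higher lie near the left edge, where ESC-PGCLC levels are close to 0%, and the 44 called lower lie mostly at ESC-PGCLC levels above 60%.

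The comparison was then tested with limma across all features, sharing the spread of the 4 PGCLC and 4 PGC libraries. Called features (adjusted p under 0.05 and group means at least 10 points apart) numbered 101, of which 57 (0.0403% of those tested) were higher and 44 (0.0311%) lower in pESC-PGCLCs, while 26772 features had an unadjusted p under 0.05. Calls fell on 40 repeat features, 19 introns, 15 promoters, 13 exons, 10 shores, 3 3' UTRs and 1 5' UTR, and on none of the 13952 CpG islands, of which 955 had an unadjusted p under 0.05. Promoters and introns were called mostly higher (12 of 15 and 16 of 19), and repeats mostly lower (26 of 40). With 10 points between the nearest libraries, however, 39 promoters were higher and 150 lower, and 66 introns higher and 172 lower. The balance of directions in these classes thus depended on the measure. No gene was called in more than 1 of its own feature classes, and no feature of the gene lists described below was called. The number of calls depended on single libraries. It was 339 without ESC-PGCLC replicate 1, 24 without ESC-PGCLC replicate 2, 22 without pESC-PGCLC replicate 1 and 24 without pESC-PGCLC replicate 2. Centring each library on its median left 85 calls, 71.8% of which were higher, against 56.4% without centring.

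The 12 promoters called higher in pESC-PGCLCs were low in ESC-PGCLCs, with library values from 0% to 7.18%, and had from 10.3% to 48.2% in pESC-PGCLCs. The largest rise was at the promoter of Unc119 (chromosome 11, gene span 78343482 to 78349164, plus strand), a carrier of lipid-modified proteins to the cilium. It had 2.75% and 2.48% in ESC-PGCLCs, as against 44.9% and 48.2% for pESC-PGCLCs, a difference of 4.57 ± 0.17 (SE) in log2 odds with a limma adjusted p of 0.00553. ESCs (45.9% and 39.2%), pESCs (45.0% and 45.5%), E9.5 PGCs (54.3% and 61.9%) and E12.5 PGCs (43.9% and 40.8%) all lay near the pESC-PGCLC values, so that the ESC-PGCLC libraries stood apart from the 10 others. The promoter was called under 12 of 13 alternative settings of the test. The promoter of Rasgef1a (chromosome 6, 118011438 to 118091546, plus strand), which encodes an exchange factor of Ras proteins, was listed at 0% in each ESC-PGCLC library but at 47.0% and 37.0% in pESC-PGCLCs (limma adjusted p 0.00707). It had 19.5% to 34.4% in the stem cells and 35.1% to 59.5% in PGCs.

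The other promoters called higher, named after their values were seen, repeated that arrangement with smaller differences. Rer1, a Golgi receptor that returns proteins to the endoplasmic reticulum, had 6.38% and 4.20% in ESC-PGCLCs, as against 37.4% and 34.8% for pESC-PGCLCs (limma adjusted p 0.0168). Syde1 had 2.30% and 2.54% against 34.5% and 28.8% (limma adjusted p 0.00653), and Hcn3, a pacemaker ion channel, had 1.18% and 1.85% against 26.8% and 26.4% (limma adjusted p 0.00558). Psmd2, a regulatory subunit of the proteasome, had 7.17% and 7.18% against 26.7% and 26.1% (limma adjusted p 0.0479). In each of these 4 promoters the libraries of ESCs, pESCs and PGCs all lay above both ESC-PGCLC libraries. At Pdcd10 the promoter and the shore chr3:75556896-75558897 held the same values in all 12 libraries, 1.60% and 1.47% in ESC-PGCLCs, as against 24.9% and 30.3% for pESC-PGCLCs, so that these 2 calls rest on the same cytosines. The promoter of Myo10, a myosin of filopodia, differed from the others in the stem cells. It had 2.94% and 2.33% in ESC-PGCLCs, 20.6% and 17.7% in pESC-PGCLCs, between 2.96% and 3.78% in ESCs and pESCs, and between 17.6% and 24.4% in PGCs, so that the low ESC-PGCLC levels were near those of stem cells.

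Within genes, 16 introns and 7 exons were called higher. The intron of Cryzl2, a gene of the oxidoreductase family, had 7.14% and 7.02% in ESC-PGCLCs, as against 55.2% and 53.3% for pESC-PGCLCs (limma adjusted p 0.00250), with 26.3% to 34.1% in stem cells. The intron of Smap1, a GTPase-activating protein of Arf6, had 14% and 10.4% against 53.9% and 57.5% (limma adjusted p 0.0128). Tomm70a, an import receptor of the mitochondrial outer membrane, had 1.46% and 0.917% against 43.2% and 40% at its intron (limma adjusted p 0.0128). These introns were methylated in every library other than the ESC-PGCLC libraries, at 26.3% or more. The intron of Hexdc, a hexosaminidase, had 5.10% and 7.81% against 52.9% and 43.1% (limma adjusted p 0.0392). The exons of the predicted genes Gm29233 and AC174800.1 were listed at 0% in each ESC-PGCLC library but at 60% and 42.9%, and at 55.6% and 37.5%, in pESC-PGCLCs (limma adjusted p 0.0128 for each). Reads of predicted genes can be shared with similar copies, so these are uncertain. The introns of Scgn and Aifm1, which had the largest rises outside repeats, had 34.8% to 60.3% and 30.6% to 41.8% in the stem cells and 39.9% to 62.4% and 62.3% to 75.8% in PGCs, again above ESC-PGCLCs, which had 4.76% or less. Of shores, 6 were called higher, and the one with the largest rise, in BC030867 (chr11:102249264-102251265), had 8.72% and 5.91% against 45.4% and 49.0% (limma adjusted p 0.0284). Stem cells had 10.6% to 16.5% there.

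Features called lower in pESC-PGCLCs were mostly highly methylated in ESC-PGCLCs, and 26 of the 44 were repeats. The largest fall outside repeats was at the promoter of the predicted gene Gm31683 (chromosome 13, 40907332 to 40917895, minus strand), with 65.6% and 70.9% in ESC-PGCLCs, as against 35.8% and 32.1% for pESC-PGCLCs, a difference of -2.02 ± 0.16 (SE) in log2 odds (limma adjusted p 0.0354). It had 3.02% or less in stem cells, 50.9% and 51.5% in E9.5 PGCs and 29.2% and 31.5% in E12.5 PGCs, so that ESC-PGCLCs lay above the 10 other libraries. The promoter of Gm29100 had 74.7% and 73.4% against 51% and 49.5% (limma adjusted p 0.0354). The exon of the pseudogene Trmt112-ps1 had 68.0% and 67.2% against 39.6% and 40.8% (limma adjusted p 0.0346). The exon of Gm7534, annotated as protein-coding, had 82.7% and 84.5% against 63.4% and 61.0% (limma adjusted p 0.0435). Among other protein-coding genes, Atp6v0d2, a subunit of the proton pump of osteoclasts, had 72.2% and 73.3% against 51.2% and 50.0% at its exons (limma adjusted p 0.0435). Ang2, a ribonuclease of the angiogenin family, had 78.1% and 79.1% against 57.8% and 56.4% at its exons (limma adjusted p 0.0354). Lmtk3, a kinase of the lemur family, had 74.2% and 73.8% against 55.1% and 52.3% at its 3' UTR (limma adjusted p 0.0479). In these 3 genes the ESC-PGCLC level was close to that of E9.5 PGCs, which had between 67.9% and 81.8%. The shore in Kansl2 (chr15:98531651-98533651), a gene of a histone acetyltransferase complex, was listed at 100% in each ESC-PGCLC library but at 78.6% and 72.8% in pESC-PGCLCs (limma adjusted p 0.00428), and the intron of the predicted gene Gm2128 was likewise at 100% against 69.2% and 76.5%. Gm8550 lies within the span of Akr1cl, and the exons of both were called, with 62.7% and 64.3% against 43.7% and 41.7% at Gm8550.

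Repeat features are named by an element and a stretch of its consensus, and carry no position. How many copies stand behind each was not given, so a stretch may rest on a single copy. The largest rise was at a stretch of the short element B4A (bases 94 to 149 of the consensus), listed at 0% in each ESC-PGCLC library but at 90.9% and 80% in pESC-PGCLCs (limma adjusted p 0.00717). Stem cells and PGCs had 44.1% to 65.4% there. An L1MdA_VI stretch (6257 to 6576) was at 0% against 48.3% and 47.5%, with 43.0% to 56.3% in stem cells and PGCs (limma adjusted p 0.000360), and an RLTR44-int stretch (816 to 1332) was at 0% against 43.5% and 61.8%. An internal stretch of the endogenous retrovirus IAPEY3 (1 to 7307) had 42.0% and 39.3% against 62.1% and 63.4% (limma adjusted p 0.0405). Stem cells and PGCs had between 64.1% and 77.5% there. The largest falls were at an L1MdF_IV stretch (411 to 527), with 100% in both ESC-PGCLC libraries and 42.9% and 46.2% in pESC-PGCLCs, at an MTE2b stretch (147 to 377), with 50.0% and 44.4% against 0% in both, and at a B4 stretch (16 to 288), with 87.5% and 88.9% against 47.2% and 41.4% (limma adjusted p 0.00861, 0.00541 and 0.0106). E12.5 PGCs had no level at the MTE2b stretch, and the fit left them out for that feature. The called L1MdF_IV stretch 406 to 6579 and the promoter of Gm14082 held the same values in each library, so that these calls are not separate observations.

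The 8 libraries of stem cells and PGCs show on which side the origins differed from the rest. Over the 57 features called higher, the median level was 2.43% and 2.33% in ESC-PGCLCs, 34.1% and 30.3% in pESC-PGCLCs, 32.3% and 25.4% in ESCs, 29.8% and 29.7% in pESCs, 47.0% and 50.0% in E9.5 PGCs and 36.5% and 33.3% in E12.5 PGCs. Of the 51 with a level in all 12 libraries, both ESC-PGCLC libraries were the lowest of all at 47 (92.2%). Over all features with such levels that share was 0.866%. The count draws partly on the values behind the calls and is given as a description. The pESC-PGCLC libraries were the highest of all at 1. At 20 of the 57, both ESC-PGCLC libraries were listed at 0%. Read depth at these features is unknown, and its part in these zeros was not tested. When features at 0% or 100% in any of the 4 libraries were left out, 54 features were called, 31 higher and 23 lower.

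Features called lower showed a mixed arrangement. Over the 44, the median was 77.9% and 77.6% in ESC-PGCLCs, 53.4% and 52.3% in pESC-PGCLCs, 77.9% and 76.8% in E9.5 PGCs, 41.4% and 43.8% in E12.5 PGCs, 36.3% and 19.6% in ESCs and 29.0% and 22.5% in pESCs. ESC-PGCLC levels were thus near those of E9.5 PGCs, and pESC-PGCLC levels lay between the stages. Of the 37 with a level in all 12 libraries, both ESC-PGCLC libraries were the highest of all at 15 (40.5%), likewise a description. Over all features with such levels that share was 0.812%. Over all 133311 features with a level in all 12 libraries, both ESC-PGCLC libraries lay at least 10 points below the 10 other libraries at 102 and at least 10 points above them at 53. For pESC-PGCLCs those counts were 1 and 2. E9.5 PGCs lay above all others by that margin at 24250 features, and E12.5 PGCs below all others at 1869.

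**Figure D2:**
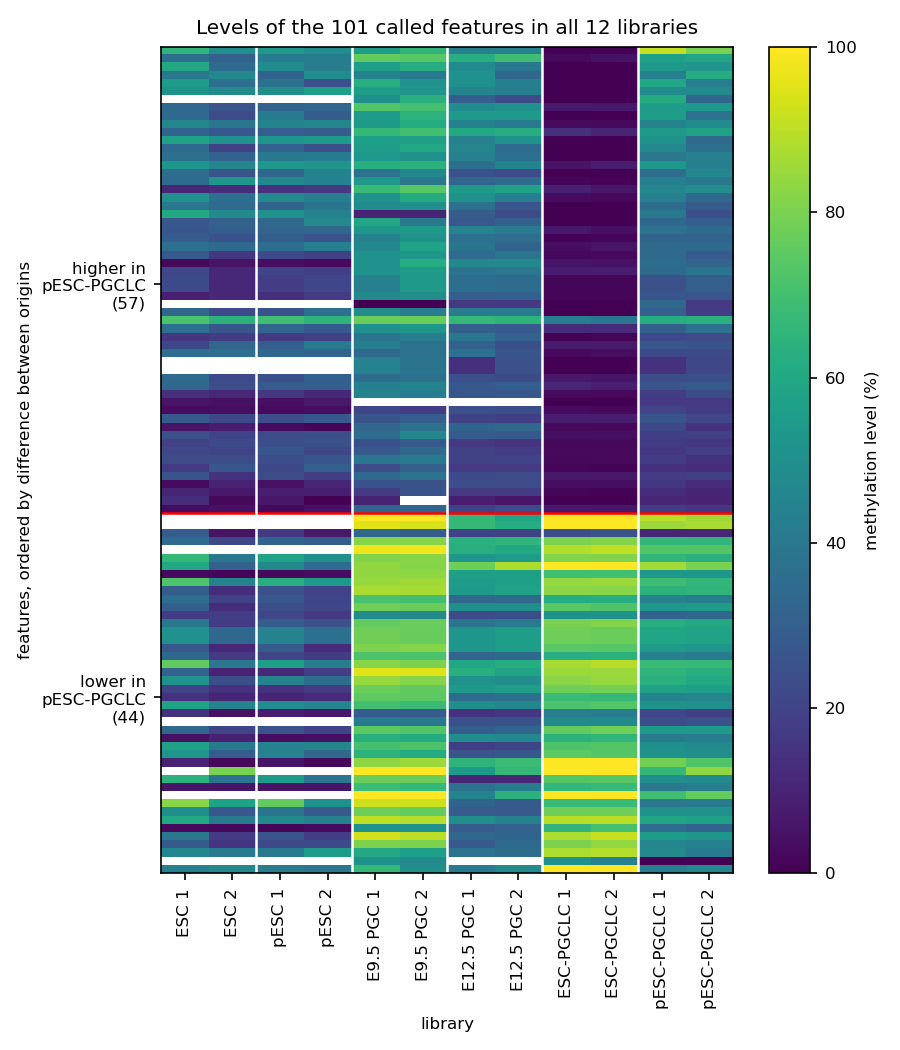
Methylation level (colour, 0 to 100%) of the 101 called features (rows, ordered by the difference between origins) in the 12 libraries (columns), with white cells where a library has no level. Above the red line the 57 features called higher in pESC-PGCLCs are dark in the ESC-PGCLC columns and lighter in most others, and below it the 44 called lower are bright in the ESC-PGCLC and E9.5 PGC columns.

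ESC and pESC libraries were not used in the test and show whether the stem cells of the origins also differed at these features. Whether they came from the cultures that were induced was not given in the sources used here. They therefore need not show the state before induction. Of 53 features called higher with stem cell levels, 35 (66.0%) had a higher mean in pESCs than in ESCs, and 9 (17%) were higher without overlap of replicates. Over all features tested those shares were 50.2% and 8.92%. The median difference between pESCs and ESCs at the 53 was 1.08 points, against 26.1 points between the PGCLCs. Of 37 features called lower with stem cell levels, 26 (70.3%) had a lower mean in pESCs, and 1 was lower without overlap, where 49.7% and 6.21% of all features were. Among features separated by 10 points, 199 of 321 (62.0%) that were higher and 917 of 1468 (62.5%) that were lower in pESC-PGCLCs had the same direction in the stem cells. At most of the features called between the PGCLCs, the stem cells of both origins thus overlapped. ESC replicates were the least alike of all groups, with 24.5% of features at least 10 points apart, so that small stem cell differences could not be resolved.

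Promoters of genes with oocyte-methylated control regions were often higher in pESC-PGCLCs, against the lower level overall. The list of such genes held 25, and 15 had a promoter level in all 4 libraries. Both pESC-PGCLC libraries were above both ESC-PGCLC libraries at 7 of the 15 and below at 2, with 4 at an unadjusted limma p under 0.05 and none called. Over all promoters 11.3% were higher and 34.9% lower. Of the 14 with a mean of 20% or more, 7 were higher and 1 lower, where 4.24% and 61.6% of the 6279 promoters at such levels were. The promoters of Peg10 and Sgce, both among the 7, lie at 1 shared island and held similar values in all 12 libraries. They are thus not separate observations. The median difference over the 15 promoters was 1.68 points, against -0.280 points over all promoters. The mean over the 15 was 36.2% and 35.4% in ESC-PGCLCs, as against 38.1% and 38.3% for pESC-PGCLCs, a difference of 2.35 points (exact permutation p = 0.333, two-sided, the smallest possible). Exons and introns gave -0.333 points over all listed genes with such a level. That set is wider, as 22 of the 25 genes had an exon level. After centring on the library median, 10 of the 15 promoters were higher and 1 lower, where 26.1% and 17.5% of all promoters were.

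Snrpn, the paternally expressed gene at the control region of the Prader-Willi and Angelman domain, had the largest difference among these promoters (chromosome 7, 59982495 to 60140219, minus strand). Its promoter had 48.5% and 56.7% in ESC-PGCLCs, as against 66.2% and 70.0% for pESC-PGCLCs, a difference of 0.92 ± 0.24 (SE) in log2 odds that was not called (limma adjusted p 0.167). It had 34.5% and 44.8% in ESCs and 82.8% and 83.2% in pESCs. The difference between origins thus had the same direction in stem cells and PGCLCs and was smaller in PGCLCs. The intron of Snrpn had 46.1% and 53.4% against 59.6% and 59.7%. Mest, a paternally expressed hydrolase gene, had 47.8% and 45.5% in ESC-PGCLCs, as against 55.9% and 54.6% for pESC-PGCLCs at its intron (limma adjusted p 0.136). Its promoter had 34.5% and 36.7% against 45.2% and 38.7%, and its exons overlapped between the origins. Peg10, a retrotransposon-derived gene of the placenta, had 35.7% and 32.9% against 41.8% and 40.5% at its promoter. Sgce, which shares a control island with Peg10, had 36.6% and 33.6% against 42.7% and 40.8%. Plagl1, a zinc finger gene, had 32.3% and 32.4% against 37.9% and 37.7%, and the retrogene Zrsr1 had 32.8% and 33.9% against 37.0% and 36.6%. At each of these promoters the replicates of the origins did not overlap, and no adjusted p passed the threshold. In the stem cells, the promoters of Mest, Peg10, Sgce and Zrsr1 had 1.65% to 6.76% in ESCs and 34.6% to 47.6% in pESCs. Both ranges lie below what the parental pattern described above would give, and the reason was not tested. The PGCLC differences therefore cannot be read as a count of methylated copies.

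Other imprinted features lay on either side. The promoter of Mcts2, a retrogene within H13, had 43.9% and 43.3% in ESC-PGCLCs, as against 35.7% and 38.1% for pESC-PGCLCs. The exons of Nespas, an antisense RNA of the Gnas domain, had 52.8% and 43.7% against 36.7% and 35.6%. Both were nearly unmethylated in the stem cells, at 6.13% or less in ESCs and pESCs alike, so that no difference of this size was seen in the stem cell libraries. The exons of Peg3, a zinc finger gene, had 70.2% and 68.5% against 65.4% and 65.8%. The intron of Impact had 50.9% and 50.6% against 52.7% and 51.9%. The intron of Igf2r, the receptor that clears insulin-like growth factor 2, had 43.4% and 47.7% against 49.1% and 50.1%, whereas its exons had 44.8% and 48.1% against 35.7% and 42.4%. Thus within 1 gene, features could lie on opposite sides.

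Promoters of genes with sperm-methylated control regions showed a smaller mean difference, but few of them were methylated. A mean of 20% or more was found at 2 of 6, as against 14 of 15 on the oocyte list. The list held 9 genes, of which 6 had promoter levels, with 2 higher, 1 lower and none called, and none at an unadjusted limma p under 0.05. Over all promoters 11.3% were higher and 34.9% lower. Their mean was 16.1% and 16.0% in ESC-PGCLCs, as against 15.6% and 14.9% for pESC-PGCLCs, a difference of -0.765 points (exact permutation p = 0.333, two-sided). The median level over the 6 genes differed by 0.234 points, with the opposite sign. The promoter of H19, a noncoding RNA opposite Igf2, had 56.2% and 57.6% against 55.2% and 47.8%, a difference of -5.44 points without overlap. It had 60.3% and 61.6% in ESCs and 52.6% and 39.9% in pESCs, so that it was methylated in the parthenogenetic stem cells too. The promoters of Rasgrf1 and Dlk1 stayed at 2.37% or less in all 4 libraries. H19 was thus the highest of these promoters, and its pESC-PGCLC replicates lay further apart than the origins did on average. The 5 measured promoters of host genes of oocyte-methylated imprints, such as Commd1 and Herc3, held 1 that was higher and 2 that were lower. Those counts too are to be read against the 11.3% and 34.9% of all promoters.

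**Figure D3:**
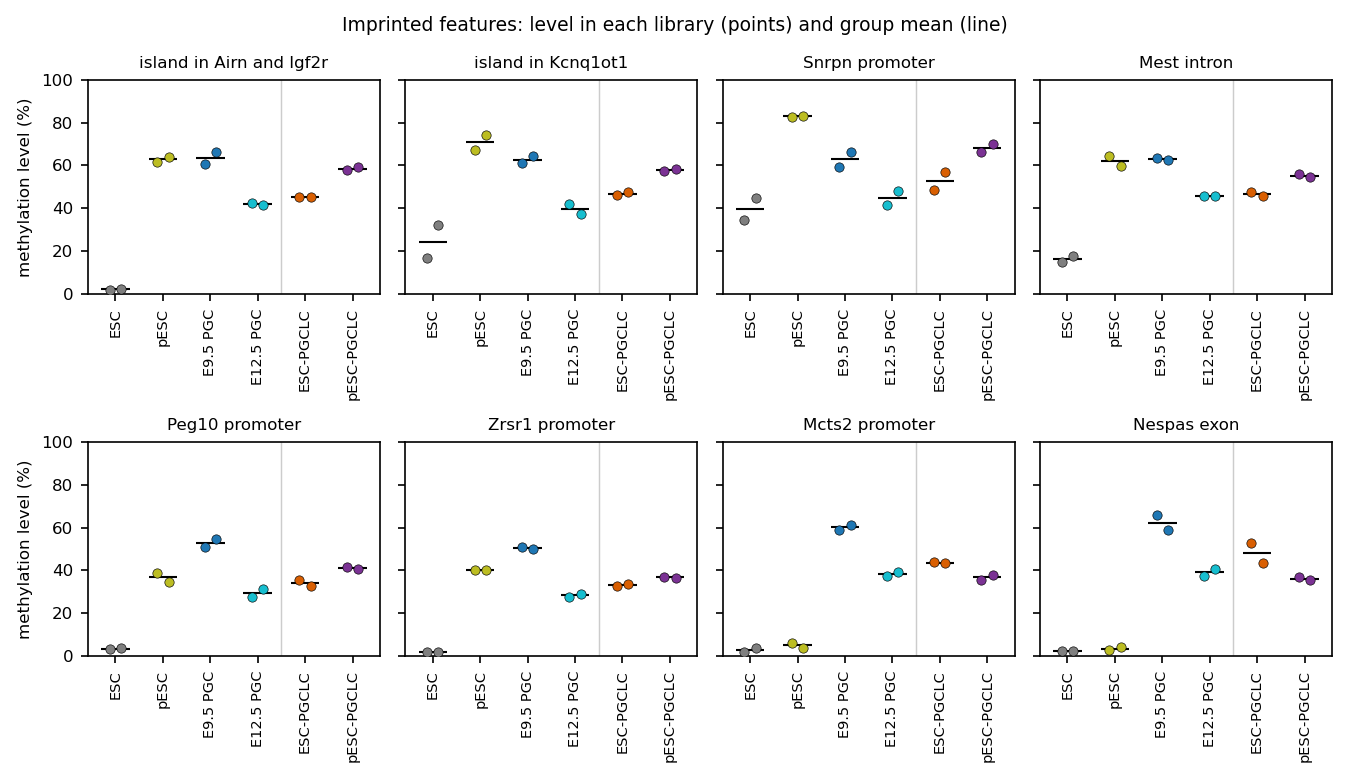
Methylation level (y axis, %) of 8 imprinted features in each of the 6 groups (x axis), with 1 point per library and a line at the mean of the 2 libraries. In the first 6 panels pESC-PGCLC points lie above ESC-PGCLC points and pESC points above ESC points, and at Mcts2 and Nespas the pESC-PGCLC points lie below while ESC and pESC points are both near 0%.

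CpG islands carry the control regions themselves. Of 13952 islands, 3 (0.0215%) were higher and 22 (0.158%) were lower in pESC-PGCLCs with at least 10 points between the nearest libraries. Of the 3 that were higher, 2 were imprinted control islands whose sequences are printed above. The island in Airn and Igf2r had 45.1% and 45.3% in ESC-PGCLCs, as against 58.0% and 59.1% for pESC-PGCLCs (limma adjusted p 0.124). It had 1.91% and 2.20% in ESCs and 61.7% and 64.2% in pESCs. The island of Kcnq1ot1 had 46.0% and 47.5% against 57.5% and 58.2% (limma adjusted p 0.142), with 16.5% and 31.9% in ESCs and 67.5% and 74.4% in pESCs. At both islands ESC-PGCLCs lay well above ESCs, pESC-PGCLCs lay somewhat below pESCs, and the origins were apart in stem cells and PGCLCs alike. The third was an island in the amino acid transporter gene Slc7a2, with 37.7% and 28.5% against 47.8% and 55.9%. The 22 that were lower included islands at Rhox9, Sox5, Aire and Cit, named here after their values were seen. The island at Rhox9, an X-linked homeobox gene, had 64.2% and 65.1% against 50.0% and 50.8%.

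Islands within 2000 bases of a listed imprinted gene were collected after these values were seen. There were 40, and 13 of them were higher and 13 lower without overlap, where 14.4% and 22.7% of all islands were. Of the 19 with a mean of 20% or more, 9 were higher and 6 lower, where 4.07% and 71.0% of the 884 islands at such levels were. After centring, 10 were higher and 4 lower, against 7.69% and 50.8% of the 884. Some of these islands lie at the promoters described above. The island of Peg10 and Sgce held the values of the Sgce promoter in every library. Islands and promoters are thus not separate observations. Over the 19 islands, the difference between the PGCLCs went with the difference between the stem cells (Pearson's r 0.822, Spearman's rank correlation 0.861), given as a description since islands of 1 domain share libraries and cells. Of the 8 islands at which pESCs exceeded ESCs by 30 points or more, 6 were higher and none lower, and of the 11 others 3 were higher and 6 lower. The Gnas domain held both signs. Its island chr2:174297263-174297532 had 40.7% and 29.4% in ESC-PGCLCs, as against 57.7% and 49.9% for pESC-PGCLCs, with 21.5% and 31.9% in ESCs and 63.0% and 59.4% in pESCs. The island chr2:174284648-174285390, at Nespas, had 56.3% and 44.1% against 37.1% and 36.9%, with 3.87% or less in all stem cell libraries.

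**Figure D4:**
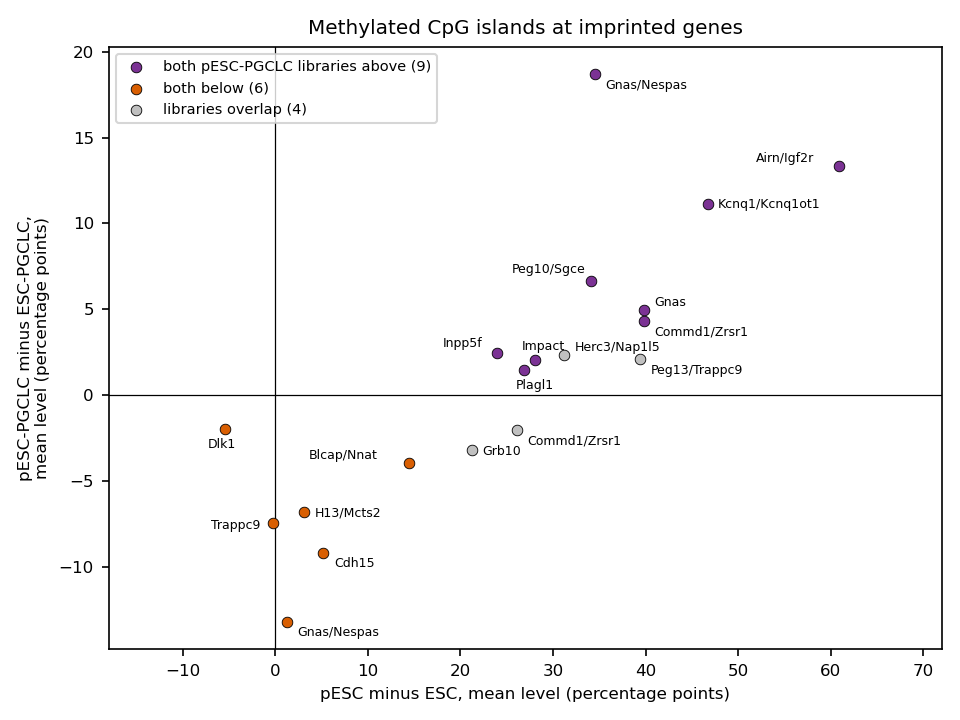
Difference in mean level between pESC-PGCLCs and ESC-PGCLCs (y axis, percentage points) against the difference between pESCs and ESCs (x axis, percentage points) for the 19 methylated islands at imprinted genes, 1 point per island. Purple points are higher and orange points lower in both pESC-PGCLC libraries, and the 8 islands with stem cell differences of 30 points or more all lie above 0 on the y axis.

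Germline genes that are silenced by promoter methylation in somatic cells and open during germ cell development were examined next. Of 36 such genes 23 had a promoter level, and of these none was higher and 14 were lower in pESC-PGCLCs. Of the 23, 8 had an unadjusted limma p under 0.05 and none was called. The median difference was -4.87 points. All but 1 of the 23 had a mean of 20% or more, and over all promoters at such levels 61.6% were lower and the median was -4.25 points, so that the germline genes as a list lay near other methylated promoters. The promoter of Rhox9 had the smallest p, with 67.4% and 68.3% in ESC-PGCLCs, as against 54.3% and 52.1% for pESC-PGCLCs, a difference of -0.87 ± 0.11 (SE) in log2 odds (limma adjusted p 0.0819). E9.5 PGCs had 79.3% and 80.9% there, and E12.5 PGCs 54.8% and 52.4%, so that pESC-PGCLCs were at the level of the later stage. The intron of Rhox5, a homeobox gene of the same cluster, had 56.2% and 59.6% against 41.6% and 35.9% (limma adjusted p 0.0964).

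Sycp2, a protein of the synaptonemal complex, had 57.3% and 55.9% in ESC-PGCLCs, as against 48.1% and 45.1% for pESC-PGCLCs at its promoter. Fkbp6, needed for meiosis in males, had 65.4% and 68.6% against 60.9% and 57.8%, and Figla, a transcription factor of the oocyte, had 57.9% and 55.1% against 48.7% and 49.0%. These promoters were lower in pESC-PGCLCs without overlap. Dazl, an RNA-binding protein that opens the germ cell programme, differed less, with 47.6% and 47.2% against 44.7% and 45.4%. The promoter of the RNA helicase Ddx4 overlapped between origins, with 47.9% and 45.5% against 45.6% and 41.6%. The promoters of Sycp3 and Tdrd9 had replicates of 1 origin more than 40 points apart and could not be compared. Over all gene features of the list, 69 of 102 were lower and 1 was higher. Of these, 100 had a mean of 20% or more, and 66.4% of all gene features at such levels were lower and 3.48% higher, near the list's own share.

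**Figure D5:**
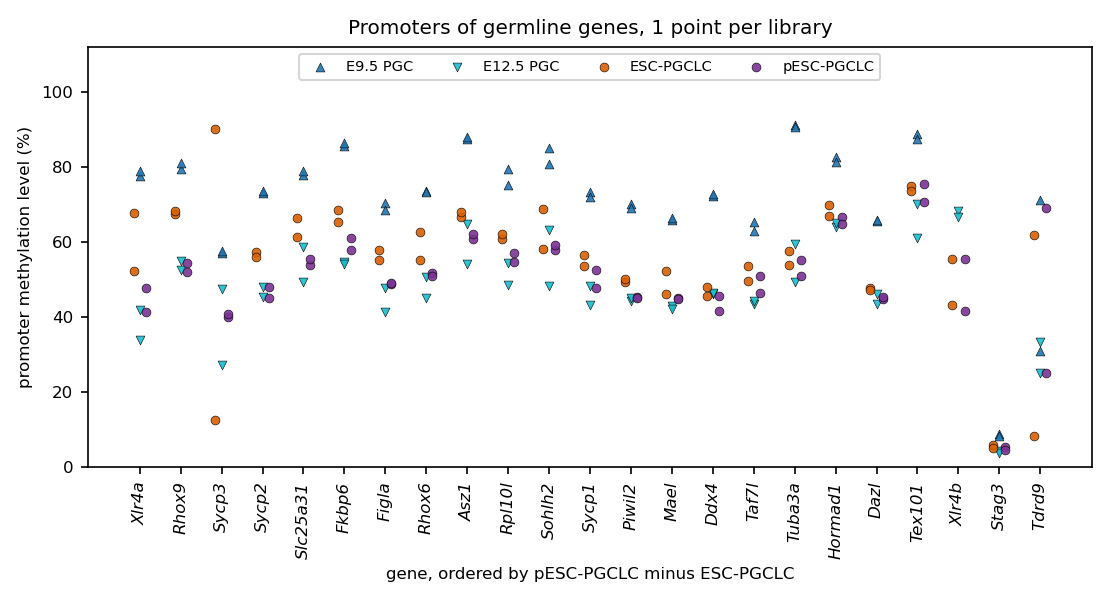
Promoter methylation level (y axis, %) of the 23 measured germline genes (x axis, ordered by the difference between origins) in both PGC stages and both kinds of PGCLC, with 1 point per library. Most points of both kinds of PGCLC lie between those of E9.5 and E12.5 PGCs, pESC-PGCLC points (purple) are below or among ESC-PGCLC points (orange), and Sycp3 and Tdrd9 have replicates far apart.

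Genes of PGC specification and of pluripotency had mostly promoters of low methylation, and the counts below are to be read against all promoters. Of 14 specification genes 7 had a promoter level, with 2 higher and 3 lower. The promoter of Dppa3 (Stella), a maternal factor that guards methylation in the egg, had 39.5% and 40.1% in ESC-PGCLCs, as against 28.1% and 24.8% for pESC-PGCLCs (limma adjusted p 0.109). It had 67.1% and 69.8% in E9.5 PGCs, 32.4% and 35.0% in E12.5 PGCs and 3.61% or less in stem cells, so that pESC-PGCLCs lay below both PGC stages and ESC-PGCLCs between them. The exons of Prdm1 (Blimp1), which founds the PGC lineage, had 37.1% and 46.4% against 27.4% and 31.0%. Of 22 pluripotency genes 17 had a promoter level, with 2 higher and 7 lower and a median of -0.276 points, near the 11.3%, 34.9% and -0.280 points of all promoters. Zfp42 (Rex1), a marker of naive pluripotency, had 41.1% and 37.4% against 27.7% and 30.2% at its promoter (limma adjusted p 0.129), and the intron of Dppa4, a chromatin factor, had 57.7% and 54.0% against 45.3% and 41.1% (limma adjusted p 0.131). The promoter of Pou5f1 (Oct4) had 13.7% and 16.1% against 12% and 11.9%.

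Genes that write, read and erase methylation were examined in the same way. Of 20 such genes 17 had a promoter level, with 3 higher and 5 lower and a median of -0.0897 points, beside the same shares over all promoters. The promoters of Uhrf1, Tet1, Tet2, Tet3 and Trim28 had at most 4.90% in any of the 4 libraries. The promoter of Dnmt3l, the cofactor of de novo methylation in germ cells, had 56.8% and 58.1% in ESC-PGCLCs, as against 51.7% and 50.2% for pESC-PGCLCs. Epiblast and gastrulation genes had promoter levels of 15.1% or less, and 5 of 13 measured of 18 were higher and none lower, with a median of 0.221 points. Over all features with a mean under 5%, 16.0% were higher and 17.9% lower, and between 5% and 20% these shares were 13.5% and 27.7%. Among them Fgf8 had 2.15% and 2.32% against 3.30% and 3.69%, and Eomes had 1.94% and 1.85% against 2.67% and 2.69%. Genes marking fibroblasts, which serve as feeder cells in many stem cell cultures, had 1 of 7 measured promoters of 12 higher and 3 lower (median -0.633 points), and Col1a1 and Col1a2 overlapped between the origins. Shares over all promoters were 11.3% and 34.9%.

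The X chromosome was lower in pESC-PGCLCs by a ratio of 0.923, within the 0.919 to 0.934 of the autosomes. In points the difference was larger, -2.26 against -1.58 over autosomal features, with ESC-PGCLC means of 29.3% and 20.9%. Over 2653 X-linked features the means were 29.1% and 29.4% in ESC-PGCLCs, as against 27.1% and 27.0% for pESC-PGCLCs, with 2.05 points between the nearest libraries (exact permutation p = 0.333, two-sided). X-linked CpG islands, 359 in number, had 17.7% and 18% against 16.4% and 16.5%, well above the 3.92% to 4.82% of the 4 stem cell libraries. With 10 points between the nearest libraries, 8 X-linked features of the 2653 (0.302%) were higher and 39 (1.47%) lower. On single autosomes, 0.0810% to 0.372% were higher and 0.405% to 0.899% lower. The shares over all features, 0.264% and 1.23%, include repeats, which have no position and are absent from these counts. The intron of Aifm1 was the single X-linked call. Of 9 genes of X inactivation or escape from it, 7 had a promoter level, with none higher and 2 lower, where 11.3% and 34.9% of all promoters were. The exons of Ftx, a noncoding activator of Xist, had 6.60% and 1.04% in ESC-PGCLCs, as against 52.0% and 25.6% for pESC-PGCLCs (limma adjusted p 0.134), with 17.6% to 53.3% in the stem cells, and its intron overlapped between origins. Xist was not among the features compared.

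Repeats were lower in pESC-PGCLCs in every group of elements, with ratios from 0.903 to 0.954. Intracisternal A particles (IAP), young retroviruses that resist demethylation in the germline, were the most methylated group, with 70.8% and 70.7% in ESC-PGCLCs, as against 67.9% and 67.1% for pESC-PGCLCs over 839 features. The young L1Md elements of the A, Tf and Gf types, which include mobile copies, had 57.2% and 57.3% against 54.6% and 53.9%. Older L1Md elements had 56.2% in both libraries against 53.4% and 52.7%. MERVL, a retrovirus of the early embryo, had 53.5% and 53.6% against 49.2% and 48.2%, the largest difference of the groups at -4.84 points. B1 and B2 short elements differed by -3.74 and -4.23 points. The relative difference was thus smallest at IAP and at young and older L1Md elements, with ratios of 0.954, 0.948 and 0.944, and largest at ERVL elements other than MERVL, at 0.903. Of 236 elements with 20 or more features, 230 were lower without overlap of replicates, and 2, RMER17C and ORR1A4, had means that were not lower.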

How the data were processed

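RRBS libraries of 6 groups with 2 libraries each were used, grouped by their sample titles. Each file holds feature levels that the authors deposited as a fraction between 0 and 1, printed here as percentages. The authors, per their methods, aligned reads with Bismark 0.16.3 and bowtie2, kept unique best alignments, treated reads at identical places as duplicates and corrected for non-conversion. The submitters' processing notes name mm10. The promoter window and the coverage minimum were not given in the sources used here, and no counts come with the levels, so no interval or floor was computed.

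Features with a level in all 4 PGCLC libraries were tested in R 4.3.3 with limma 3.58.1 (lmFit, eBayes) on log2((level + 0.01) / (1 - level + 0.01)), in a fit of the 4 PGCLC and 4 PGC libraries with Benjamini-Hochberg adjustment over all features. A missing PGC level was left out for that feature. Calls needed an adjusted p under 0.05 and means 10 points apart. Library means were compared with exact permutation tests (scipy 1.17.1, Python 3.11.15), and the fit was tested on simulated data. Of 30073 gene identifiers, 30041 were found in GENCODE M21, which gave the gene names and spans. All 13948 CpG islands on named chromosomes lay within the GRCm38 lengths.

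The members and gene lists were chosen with earlier results of these data known. Named genes were the 10 called features outside repeats with the largest rise and the 10 with the largest fall, the 3 repeat features with the largest rise and fall, and a fixed set of imprinted and germline genes. Other named genes were chosen after their values were seen. Repeats were grouped by the files' own class and element names in place of the name patterns first written, which did not match the files. The test was repeated under 13 alternative settings. Same-numbered libraries of the origins did not deviate together (correlation of deviations 0.0459 over 141523 features), so the test used no replicate block.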

Additional observations from a re-analysis of the deposited data

How the results depend on the processing

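Depth could not be assessed, and 2 libraries against 2 allow no exact p under 0.333. The 101 calls became 986 (135 higher) with an offset of 0.1, 1703 (176 higher) with untransformed levels, 155 (62 higher) with robust and trended moderation, 64 with a difference of 20 points, 54 without levels of 0% or 100% and 8 with the 4 PGCLC libraries alone. They ranged from 22 to 339 when single libraries were left out, with the lone library taken to vary like the other groups. Centring gave 85, all 12 libraries 86 and features present in all 8 libraries 130 calls. The replicate numbers share only a number, and adding the replicate block left 23 calls, all of them among the 101. The cause of these changes was not tested. The 2119 features separated by 10 points became 12104 with a gap of 5 points and 240 with 20 points. Paired by replicate number, the differences of library means were the same by construction, with an SD of 0.190 for all features, 0.301 for the X chromosome, 0.700 for oocyte and 0.498 for sperm imprint promoters.

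The overall difference of -2.16 points was -1.84 over all features listed and -1.60 without repeats. On the X chromosome, -2.26 points became -1.09 for the median and -1.87 over all features listed. At oocyte-methylated imprint promoters, 2.35 points became 3.32 for the median over genes and -0.333 for gene bodies. At sperm-methylated ones, -0.765 points became 0.234 for the median and -2.02 for gene bodies. Without single libraries these ranged from -2.36 to -1.96, from -2.41 to -2.11, from 1.98 to 2.73 and from -1.14 to -0.392 points.

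Over the 67 named features, 859 comparisons with an alternative gave 731 with the same call, 115 with a lost call and 13 with the opposite sign. The 26 called ones gave 211 with the call kept, 115 with it lost and none reversed. The signs turned at some uncalled features when single libraries were left out. Their lowest and highest values over the 4 libraries were -4.59 and 0.558 points at the exons and -1.77 and 3.99 at the intron of Rasgrf1, -2.41 and 2.19 at the exons of Mest, -0.745 and 0.867 at the exons of Peg10, -5.49 and 33.7 at the intron of Ddx4, -2.38 and 0.315 at the 5' UTR of Dazl, and -0.378 and 0.0487, -1.15 and 1.60, and -0.494 and 0.721 at the promoter, the 3' UTR and the 5' UTR of Dlk1.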

Other observations

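Values of 2 further features of the gene lists stand outside the comparisons above. The 3' UTR of Fut4, whose enzyme makes the SSEA1 epitope, stood at 0% in each ESC-PGCLC library but at 40% and 12.5% in pESC-PGCLCs (limma adjusted p 0.118), with no level in any stem cell library. The promoter of the reader gene Mbd2 had 7.83% and 5.94% in ESC-PGCLCs, as against 12.8% and 13.4% for pESC-PGCLCs (limma adjusted p 0.119), with 12.6% to 14.4% in stem cells and 11.2% to 20.7% in PGCs.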
